A study of Mus musculus with 14 samples.

Results

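The regions described here are H3K4me2 peaks of MLL-AF9 leukemia cells that were called in 3 conditions but not after treatment with MM-401. They were chosen by position from chromatin immunoprecipitation followed by sequencing (ChIP-seq) in mouse cells. A member is an autosomal H3K4me2 peak of the DMSO list, at least 300 bp and less than 5000 bp wide, that shares at least 1 bp with an H3K4me2 peak in EtOH and with one under 4OHT and shares no base with any under MM-401. There were 1685 such peaks among 105136 DMSO H3K4me2 peaks, or 1.60%. They are called lost peaks below, where lost means only that no peak was called there under MM-401.

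MAF9 cells are mouse bone marrow cells transduced with the MLL-AF9 fusion, and they were treated for 2 days with 20 µM MM-401 or with DMSO, the solvent. MLL1 flox/flox, ER-Cre+/- cells, likewise MAF9-transduced, were treated for 2 days with 400 nM 4-hydroxytamoxifen (4OHT) or with ethanol (EtOH). Both cultures therefore carried the fusion and were grown with interleukin-3 at 10 ng/ml and 15% serum. H3K4me2 and WDR5 were mapped in all 4 conditions and MLL1 in DMSO and MM-401 only, with 1 library per condition and antibody, so the deletion of Mll1 under 4OHT could not be checked here. The 14 samples included 4 inputs, which were not analysed here. No test was possible between conditions and no p-value is given. Intervals are 95% intervals for the counting of peaks alone, as if neighbouring peaks were independent.

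H3K4me2 is histone H3 dimethylated at lysine 4, a mark of promoters and enhancers that often forms broad domains around active genes. MLL1 is one of the histone methyltransferases of the MLL family that place methyl groups on this residue. WDR5 is a core subunit that these methyltransferases share, and its contact with MLL1 supports methyltransferase activity. The compound MM-401 is an inhibitor of this contact. The Cre recombinase in the flox cells is fused to an estrogen receptor domain and is activated by 4OHT.

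The rule narrowed the DMSO list in steps. Of its 105136 peaks, 102640 were autosomal, and 60547 of these lay within the width limits after 40483 narrower and 1610 wider peaks were set aside. Among the 60547 peaks, 52954 were overlapped in EtOH and 49647 in both EtOH and 4OHT. The MM-401 list lacked 1685 of these 49647 peaks, or 3.39%, and overlapped the other 47962, which are called kept peaks. Over the whole DMSO list, without any limit, 30.5% of peaks were absent under MM-401. These counts follow from the rule and are given as a description.

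Peaks were also absent from other single lists. With the same starting list and width limits, 3.14% (2.99 to 3.30%) of peaks were absent from EtOH alone and 4.27% (4.10 to 4.45%) from 4OHT alone, against 3.39% (3.24 to 3.56%) from MM-401 alone. The MM-401 share thus lay between those of an untreated and a treated library of the other cells. The MM-401 list held 92025 H3K4me2 peaks, the 4OHT list 91305 and the EtOH list 100898. A further 1166 peaks were called in DMSO and EtOH but neither under MM-401 nor under 4OHT. The order changed with the starting list. From the EtOH list, 1888 peaks, or 4.67%, were absent from MM-401 alone, against 3.60% from 4OHT alone and 2.74% from DMSO alone. From the 4OHT list, 3.76% were absent from MM-401 alone, against 2.47% from DMSO alone and 2.14% from EtOH alone. MM-401 thus gave the highest share from both flox lists, but not from the DMSO list.

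The lost peaks were narrow. Their median width was 425 bp, with quartiles of 325 and 550 bp, whereas kept peaks had a median of 1225 bp. In the class from 300 to below 400 bp lay 702 lost peaks, or 41.7%, against 6.32% of kept peaks. From 400 to below 500 bp lay a further 23.7%, and 411 measured 500 to below 750 bp. At the wide end, 61 measured 1000 to below 2000 bp and 4 measured 2000 bp or more. Peaks absent from 4OHT alone were somewhat wider, with a median of 500 bp, and those absent from EtOH alone had a median of 475 bp.

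The share of peaks lost fell at every step of width. MM-401 alone lacked 18.8% (17.6 to 20.1%) of peaks of 300 to below 400 bp, 13.1% of those from 400 to below 500 bp and 6.20% of those from 500 to below 750 bp. The share was 1.71% (1.42 to 2.06%) from 750 to below 1000 bp, 0.333% (0.259 to 0.427%) from 1000 to below 2000 bp and 0.0345%, or 4 of 11591 peaks, from 2000 bp upwards. The shape was not the same for the other lists. In the narrowest class the MM-401 share was above those of 4OHT, 16.3% (15.1 to 17.5%), and of EtOH, 14.0% (12.9 to 15.2%). From 750 to below 1000 bp it was below both, with 4.59% (4.10 to 5.12%) absent from 4OHT alone and 2.79% (2.41 to 3.22%) from EtOH alone. From 1000 to below 2000 bp it was again below both, which stood at 1.12% and 0.647%. From 2000 bp upwards, where EtOH alone lacked 1 peak, the intervals of MM-401 and EtOH overlapped. Below that width, single absence under MM-401 was more concentrated in narrow peaks than single absence from either flox list. The widths are those of DMSO peaks, which came from the same cells as the MM-401 list but not the flox lists. Cells and treatment therefore cannot be told apart in this contrast.

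**Figure D1:**
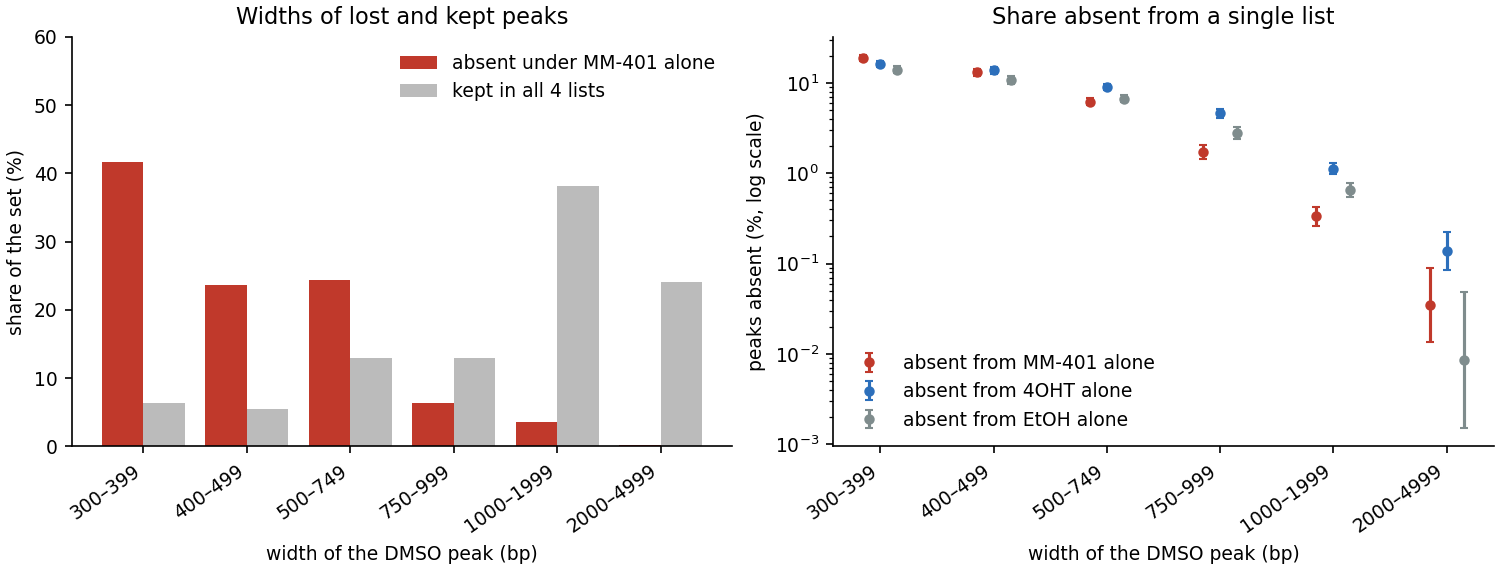
Left, share of lost peaks (red, 1685) and of kept peaks (grey, 47962) in each class of DMSO peak width in bp. Right, share of DMSO peaks absent from MM-401, 4OHT or EtOH alone in each class, on a log axis, with 95% Wilson intervals as bars. Of the lost peaks, 41.7% lay in the narrowest class, and the MM-401 share fell from 18.8% to 0.0345% across the classes.

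The limit of 300 bp lies on this slope and has no step beside it. At exactly 300 bp, 247 of 1068 peaks were lost, or 23.1%, and at 275 bp, just outside the limit, 316 of 1249, or 25.3%, met the rest of the rule. A total of 3886 narrower peaks met the rest of the rule, and 0 of the peaks of 5000 bp or wider did. The limit of 1 bp of overlap had members just inside it as well. Under MM-401, 106 lost peaks touched an H3K4me2 peak with no base between and 94 lay 25 bp from one, while 113 kept peaks shared only 25 bp with one.

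The evidence for these places in the flox cells was uneven. In EtOH a median of 62.5% of the length of a lost peak was covered, with quartiles of 36.8 and 92.9%, and under 4OHT a median of 50% was covered, with quartiles of 28 and 81.8%. Kept peaks weighted to the same widths were covered over a median of 91.7% in EtOH and 86.4% under 4OHT. At least 50% of the length was covered in EtOH for 1074 lost peaks and under 4OHT for 897, and in both for 665, or 39.5%. At the other end, 379 lost peaks, or 22.5%, were covered by less than 50% in both. Whole-length coverage in both flox lists was seen for 132 lost peaks, or 7.83%.

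The H3K4me2 peak that overlapped a lost peak in the flox cells was often a small one, yet sometimes a broad domain. The widest overlapping EtOH peak had a median width of 450 bp with quartiles of 250 and 1325 bp, and reached 34100 bp. Under 4OHT the median was 325 bp with quartiles of 200 and 725 bp. For 611 lost peaks, or 36.3% (34.0 to 38.6%), an EtOH peak over the lost peak also overlapped an MM-401 peak outside it. Such EtOH peaks had a median width of 2550 bp, against 300 bp for the remainder. The same held under 4OHT for 491 lost peaks, or 29.1%, with median widths of 1675 and 250 bp. In both flox lists together 372 lost peaks lay under a domain that continued into MM-401 H3K4me2, and for 955, or 56.7%, neither flox list joined the place to an MM-401 peak.

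Most lost peaks lay close to H3K4me2 that was still called under MM-401. The median distance to the nearest MM-401 H3K4me2 peak was 350 bp, with quartiles of 125 and 1700 bp. Within 500 bp lay 967 lost peaks, or 57.4%, within 1 kb 1152, or 68.4%, and within 2 kb 1298, or 77.0% (75.0 to 79.0%). The rule used the DMSO and MM-401 lists, so these distances and those that follow are a description. Beyond 10 kb there were 95 lost peaks, or 5.64%, and beyond 50 kb there were 3.

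Kept peaks can be set beside these distances only in part, since the MM-401 peak that overlaps a kept peak is left out of its distance and takes up space next to it. Kept peaks had a median distance of 1375 bp to the nearest MM-401 peak that did not overlap them, or 950 bp when weighted to the widths of the lost peaks. The share within 2 kb was 56.1% for kept peaks and 61.1% at matched widths. In DMSO itself, the nearest other DMSO peak lay at a median of 175 bp from a lost peak, the same as for kept peaks at matched widths, and within 2 kb in 84.9% of cases against 79.7% for kept peaks at matched widths.

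Single absences in flox cells lay farther from the peaks of the list that lacked them. Peaks absent from 4OHT alone lay at a median of 2925 bp from the nearest 4OHT H3K4me2 peak, and 44.4% had one within 2 kb, which is 32.7 points (29.7 to 35.5) below the share for the lost peaks. Peaks absent from EtOH alone lay at a median of 2875 bp from the nearest EtOH peak, and 45.6% had one within 2 kb, a difference of 31.4 points (28.2 to 34.6). At the widths of the lost peaks these shares were 49.0% and 50.2%. Peaks lacking in both MM-401 and 4OHT were intermediate, with 68.6% within 2 kb of MM-401 H3K4me2. The starting list and the MM-401 list came from the same cells, while the EtOH and 4OHT lists came from others, so cells and treatment cannot be told apart in this comparison.

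**Figure D2:**
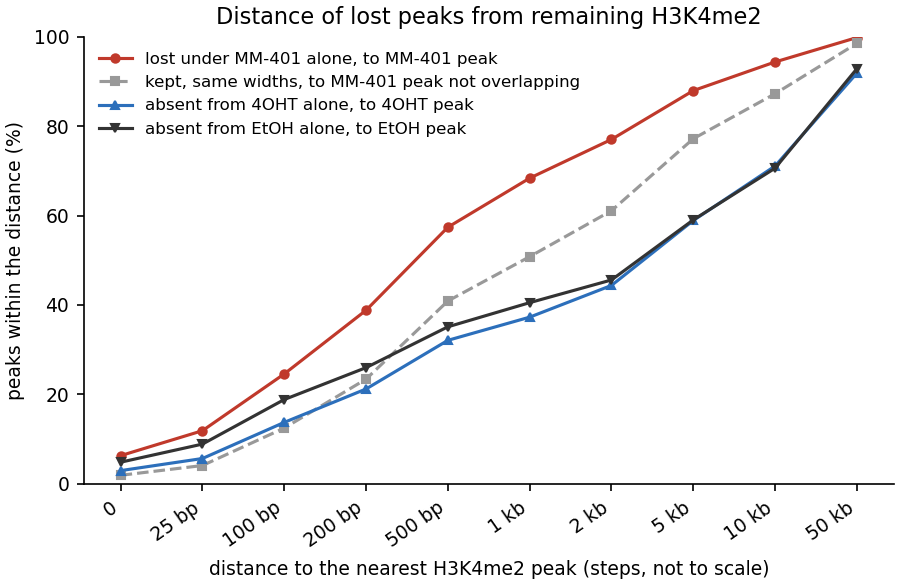
Share of peaks, in %, whose nearest H3K4me2 peak lay within the distance on the x axis, which runs in unequal steps from 0 to 50 kb. Lost peaks (red circles) reached 77.0% at 2 kb, kept peaks of the same widths (grey squares) 61.1%, and peaks absent from 4OHT alone (blue triangles) or EtOH alone (black triangles) 44.4% and 45.6%.

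By position, the lost peaks fell into 3 arrangements. Of the 1685, 461 (27.4%) lay between MM-401 peaks within 2 kb on both sides, 837 (49.7%) had such a peak on a single side, and 387 (23.0%) had none within 2 kb. The lost peaks with MM-401 peaks on both sides had a median width of 400 bp and sat under EtOH peaks with a median of 900 bp, which covered a median of 73.7% of them. Those with an MM-401 peak on a single side also had a median width of 400 bp, and their EtOH peaks had a median of 475 bp. The isolated ones were slightly wider, with a median of 475 bp, and their EtOH peaks were narrow, with a median of 325 bp.

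The 387 isolated lost peaks lay at a median of 5125 bp from MM-401 H3K4me2. Of these, 213, or 55.0%, also had no other DMSO H3K4me2 peak within 2 kb and so stood alone in both conditions. The other isolated peaks had a DMSO neighbour within 2 kb. A WDR5 peak of any condition overlapped 27 of the 387, and an MLL1 peak overlapped 8. Among all 1685 lost peaks these counts were 107 (6.35%) and 32 (1.90%), which are similar shares. Where at least 50% coverage in both flox lists was also required, 140 isolated lost peaks remained, from 300 to 1325 bp wide, and 38 of them lay beyond 10 kb from MM-401 H3K4me2.

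Some lost peaks were neighbours of each other. The nearest DMSO neighbour was itself a lost peak for 104 of 1685, or 6.17% (5.12 to 7.42%), against 1.66% (1.55 to 1.78%) of kept peaks. Conversely, the nearest DMSO neighbour was overlapped under MM-401 for 63.5% (61.2 to 65.8%) of lost and 74.4% (74.0 to 74.8%) of kept peaks. These neighbour shares use the MM-401 list that also defines lost and kept peaks, and they were not weighted for width. An MM-401 peak over a kept peak can reach its neighbour, and neighbouring lost peaks can each count the other. The shares are therefore a description. Runs of lost peaks with no MM-401 H3K4me2 between them held few lost peaks. Of 1574 runs, 1471 held a single lost peak, 95 held 2 and 8 held 3, so 214 lost peaks, or 12.7%, had a lost companion.

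Few lost peaks carried WDR5. A DMSO WDR5 peak overlapped 16 of the 1685, or 0.950% (0.585 to 1.54%), against 19.7% of all 49647 peaks that met the other conditions. Kept peaks were wider, and when weighted to the widths of the lost peaks 7.40% of them overlapped DMSO WDR5, which leaves a difference of -6.45 points (-7.02 to -5.71). The MM-401 WDR5 list overlapped 19 lost peaks, or 1.13%, against 21.1% of all and 8.94% of kept peaks at matched widths. The EtOH WDR5 list overlapped 39, or 2.31%, against 24.6% and 9.21%. The 4OHT WDR5 list overlapped 57, or 3.38%, against 25.2% and 9.61%. All 4 differences at matched widths, from -7.81 to -6.23 points, exceeded their counting intervals.

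Where lost peaks carried WDR5, it was mostly called in a single list. Any of the 4 WDR5 lists overlapped 107 lost peaks, or 6.35%, against 22.2% of kept peaks at matched widths. In 90 of the 107 it was a single list, in 11 it was 2 lists, in 5 it was 3 and in 1 it was all 4. Kept peaks at matched widths had WDR5 in a single list in 13.5% of cases, in 2 lists in 5.37%, in 3 in 2.34% and in all 4 in 0.984%, so a single list was the commonest case there as well. In the MAF9 cells, 7 lost peaks had WDR5 in both DMSO and MM-401, 9 in DMSO but not under MM-401, and 12 under MM-401 but not in DMSO, which are 0.415, 0.534 and 0.712% of them. Kept peaks at matched widths gave 4.22, 3.18 and 4.72%, so each of these patterns was found at a smaller share of lost than of kept peaks. Among peaks with DMSO WDR5, it was not called under MM-401 at 9 of 16 lost and 4265 of 9759 kept peaks. The latter were not weighted for width, and 16 lost peaks are too few for a comparison.

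MLL1 was also seldom found. The DMSO MLL1 list overlapped 8 lost peaks, or 0.475% (0.241 to 0.934%), against 6.43% of all 49647 peaks and 1.12% of kept peaks at matched widths, a difference of -0.644 points (-0.930 to -0.156). This difference depended on the rule, and its interval included 0 in 3 of 7 alternative settings, with -0.361 points if overlap was extended to gaps of 2 kb, -0.515 with 50% coverage and -0.460 when starting from EtOH. The MM-401 MLL1 list overlapped 24, or 1.42%, against 15.1% and 3.07%, a difference of -1.64 points (-2.18 to -0.906). These lists came from different peak callers and were not compared with each other. Both together overlapped 0 of 1685 lost peaks, which by a limit of 3 counts allows a share of up to 0.178%, and kept peaks at matched widths, with 0.119%, lay below that limit. MLL1 and WDR5 in DMSO coincided at 1 lost peak, or 0.0593% (0.0105 to 0.335%), and at 0.192% of kept peaks at matched widths, which lies within that interval. In all, 1548 lost peaks, or 91.9%, overlapped none of the 6 WDR5 and MLL1 lists, against 75.4% of kept peaks at matched widths.

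Within 2 kb the picture differed between the factors. These shares include the peaks that overlapped a WDR5 or MLL1 peak, which were given above. A DMSO WDR5 peak lay within 2 kb of 10.7% of lost and 21.3% of kept peaks at matched widths, and an MM-401 WDR5 peak within 2 kb of 11.9 and 24.6%. For EtOH WDR5 the shares were 19.9 and 28.2%, and for 4OHT WDR5 they were 23.1 and 31.2%. The differences for DMSO, MM-401, EtOH and 4OHT WDR5 were -10.6, -12.6, -8.35 and -8.07 points within 2 kb. By overlap alone they were -6.45, -7.81, -6.90 and -6.23 points, so much of each is the overlap difference counted again. Peaks near WDR5 without overlap were not compared separately. For MLL1 no difference was detectable, with 5.99% of lost and 5.96% of kept peaks within 2 kb of a DMSO MLL1 peak, a difference of 0.0313 points (-1.10 to 1.35). Under MM-401 the MLL1 shares were 15.1 and 15.9%, a difference of -0.845 points (-2.61 to 1.07). The median distance to the nearest DMSO WDR5 peak was 11.95 kb for lost and 14.25 kb for kept peaks at matched widths, so by this measure the lost peaks were not farther from WDR5. For DMSO MLL1 the medians were 33.6 and 46.2 kb, and for MM-401 MLL1 9 and 13.3 kb.

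**Figure D3:**
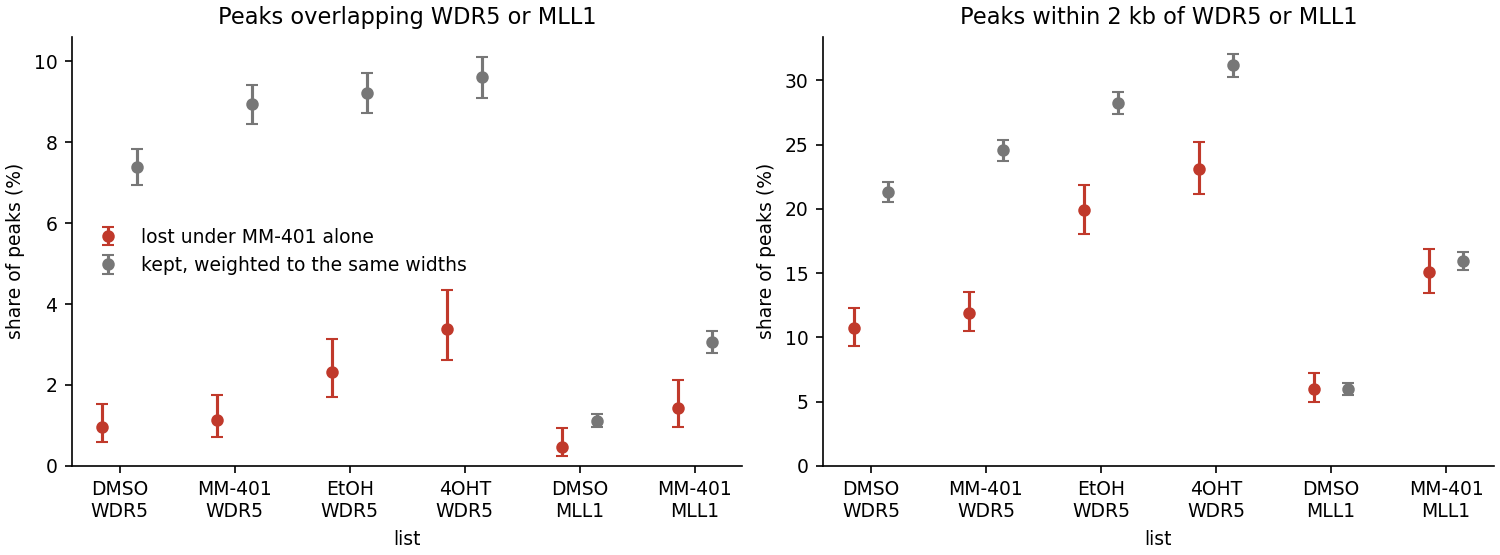
Share of lost peaks (red, 1685) and of kept peaks weighted to the same widths (grey) that overlapped a WDR5 or MLL1 peak of each of the 6 lists (left) or had one within 2 kb (right), in %, with 95% intervals as bars. Overlapping peaks are included in the right panel. In the left panel lost peaks stood at 0.950% against 7.40% for DMSO WDR5, and in the right panel the DMSO MLL1 shares were 5.99% and 5.96%.

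Read from the other side, H3K4me2 peaks with WDR5 were seldom lost. Of 9775 peaks with DMSO WDR5 that met the other conditions, 16 were absent under MM-401, or 0.164% (0.101 to 0.266%), against 4.19% (3.99 to 4.39%) of the 39872 without. For DMSO MLL1 the shares were 0.251% (0.127 to 0.494%) of 3191 with and 3.61% (3.44 to 3.78%) of 46456 without. These shares were not weighted for width. Within the class below 400 bp alone, DMSO WDR5 overlapped 9 of 702 lost peaks, or 1.28% (0.676 to 2.42%), and 5.34% (4.60 to 6.20%) of 3031 kept peaks. In the same class DMSO MLL1 overlapped 3 lost peaks, or 0.427% (0.145 to 1.25%), and 0.693% (0.454 to 1.06%) of kept peaks, within overlapping intervals.

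The low WDR5 share of the lost peaks in MAF9 cells was also lower than that of peaks missing from a single flox list. By their rules those peaks were called in DMSO and under MM-401, whereas lost peaks were called in DMSO only of the MAF9 H3K4me2 lists. The sets thus differ in their MAF9 H3K4me2 by definition, and the differences below are a description. DMSO WDR5 overlapped 2.71% of 2141 peaks absent from 4OHT alone, a difference of -1.76 points (-2.62 to -0.914), and 3.67% of 1555 peaks absent from EtOH alone, a difference of -2.72 points (-3.83 to -1.70). For MM-401 WDR5 the shares were 4.34 and 4.57%, with differences of -3.22 points (-4.25 to -2.21) and -3.44 points (-4.66 to -2.32). At the widths of the lost peaks the shares were 2.36 and 3.48% for DMSO WDR5 and 3.98 and 4.27% for MM-401 WDR5. For WDR5 of the flox cells the differences from both sets had intervals that included 0, as had those for both MLL1 lists. For example, EtOH WDR5 overlapped 2.31% of lost peaks and 2.34% of peaks absent from 4OHT alone, a difference of -0.0208 points (-0.977 to 0.983). Against the 1166 peaks lacking in both MM-401 and 4OHT, the intervals of all 6 differences included 0.

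Single places show the range of these patterns, and they were named by size and distance. Positions are given as deposited, and the processing notes of the submitters name the mouse build mm9. The widest lost peak, chr7:146087501-146091425, measured 3925 bp. It lay 25 bp from the next DMSO peak and 925 bp from MM-401 H3K4me2. In EtOH 2 peaks covered 11.5% of it and under 4OHT 2 peaks covered 7.64%, so in the flox cells too it was called over a small part of its length. The next widest, chr9:59517976-59520525, measured 2550 bp and lay 950 bp from MM-401 H3K4me2. Its length was covered to 67.6% by 6 EtOH peaks and to 2.94% by 1 peak under 4OHT, and it held an MM-401 MLL1 peak. The third, chr8:28382076-28384250, measured 2175 bp and lay 5775 bp from MM-401 H3K4me2, with 12.6% covered in EtOH and 10.3% under 4OHT.

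The lost peak farthest from remaining H3K4me2, chr16:77644251-77644625, was 375 bp wide and lay 143500 bp from the nearest MM-401 peak and 143725 bp from the nearest other DMSO peak. It was covered to 93.3% in EtOH by a peak of 700 bp and fully under 4OHT by a peak of 650 bp. This place was therefore isolated in MAF9 cells and called at nearly its full length in both flox lists. The next farthest, chr2:27167126-27167700, was 575 bp wide and lay 78675 bp from MM-401 H3K4me2, with 56.5% covered in EtOH and 34.8% under 4OHT. At chr9:64412001-64412550, 550 bp wide and 73475 bp away, coverage was 40.9 and 18.2%, and another DMSO peak lay 225 bp from it. None of these places overlapped WDR5 or MLL1 in any list.

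The widest lost peak with DMSO WDR5, chr5:125882776-125883625, was 850 bp wide and sat at the edge of a broad domain. In EtOH a single peak of 7700 bp covered 82.4% of it and the neighbouring domain, and under 4OHT 41.2% was covered. WDR5 was called there in DMSO and 4OHT. Under MM-401 the nearest H3K4me2 lay 650 bp away and the nearest WDR5 8900 bp away. At chr14:73071526-73072350, 825 bp wide, WDR5 was also called in DMSO and 4OHT, and MM-401 H3K4me2 lay 4775 bp away.

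One lost peak had WDR5 in all 4 conditions, chr7:123630926-123631650, 725 bp wide. It also held the DMSO MLL1 peak, and MM-401 H3K4me2 lay 150 bp from it. In EtOH 82.8% of it was covered and under 4OHT 58.6%. The widest lost peak with DMSO MLL1, chr4:99383551-99384725, was 1175 bp wide and lay 125 bp from MM-401 H3K4me2, with no WDR5 in any list. A lost peak of 600 bp at chr7:117097901-117098500 held DMSO MLL1 as well and lay 2900 bp from MM-401 H3K4me2, with 12.5% covered in EtOH and 25% under 4OHT.

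Among the runs of 3 lost peaks, the longest by span was chr9:72520526-72526850. It covered 6325 bp, with lost peaks of 400 to 600 bp among 6 DMSO peaks. Runs of fewer lost peaks were not ranked by span. MM-401 H3K4me2 lay 2025 bp from its left end and 14450 bp from its right end. The EtOH list held 8 peaks in the span and the 4OHT list 3, and there was no WDR5 or MLL1. The run at chr7:125248951-125253650 held 3 lost peaks among 7 DMSO peaks within 4700 bp, with MM-401 H3K4me2 at 250 and 125 bp from its ends. The run at chr16:14374026-14376900 held 3 lost peaks in 2875 bp and 1 EtOH WDR5 peak.

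**Figure D4:**
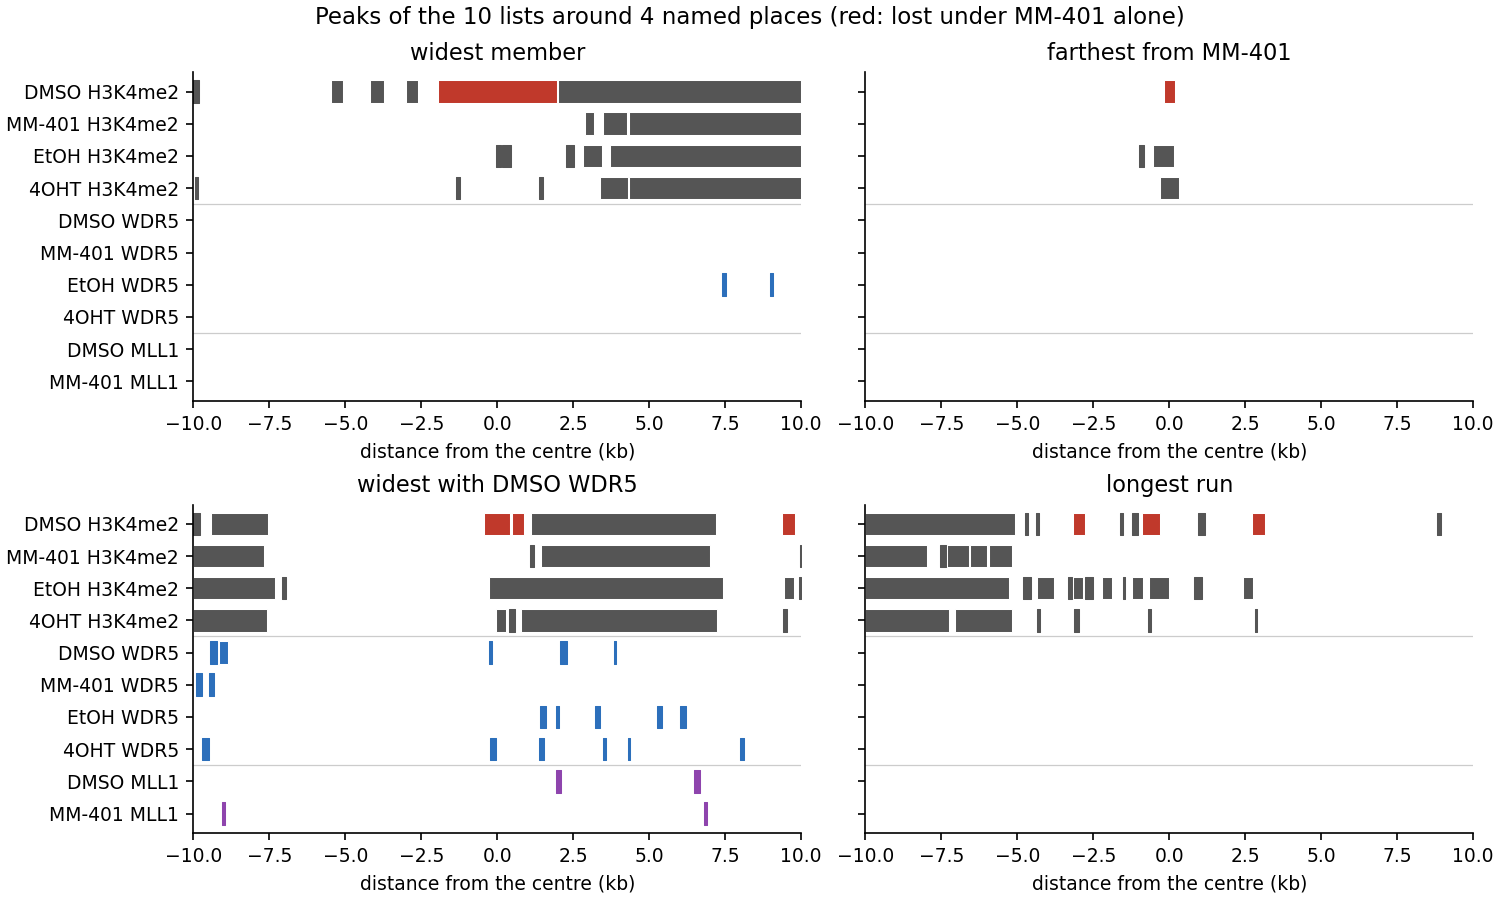
Peaks of all 10 lists within 10 kb on either side of 4 named places, drawn to scale against the distance in kb from the centre, with lost peaks in red, other H3K4me2 peaks in dark grey, WDR5 in blue and MLL1 in purple. The widest lost peak (3925 bp) adjoined a domain called in all 4 H3K4me2 lists, and the farthest stood alone with overlapping EtOH and 4OHT peaks. The widest with DMSO WDR5 lay at a domain edge, and the longest of the runs of 3 lost peaks lay beside a domain.

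The lost peaks were spread over all 19 autosomes. Shares of lost peaks among those that met the other conditions ran from 2.23% on chromosome 1 to 4.04% on chromosome 18. Chromosome 1 held 71 of 3180, or 2.23% (1.77 to 2.81%), against 3.47% on the other autosomes, and was the one autosome whose difference from the rest, -1.24 points (-1.73 to -0.644), had an interval without 0. Its peaks were wider, and at its widths the other autosomes gave 2.45%, which lies within the interval of chromosome 1. Absences from the flox lists ran the other way there. On chromosome 1, 6.69% of peaks were absent from 4OHT alone, against 4.10% elsewhere and 3.33% at its widths, and 5.56% were absent from EtOH alone, against 2.97% and 2.45%. The excess on chromosome 1 thus occurred in both lists of the flox cells and not under MM-401.

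**Figure D5:**
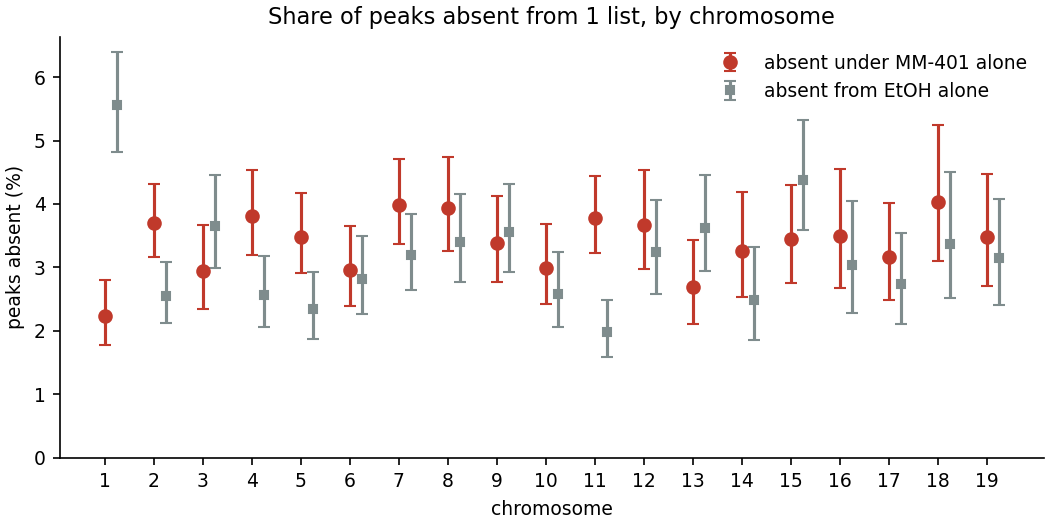
Share of peaks, in %, absent under MM-401 alone (red circles) or from EtOH alone (grey squares) on each autosome, with 95% Wilson intervals as bars. Chromosome 1 had the lowest MM-401 share, 2.23%, and the highest EtOH share, 5.56%.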

How the data were processed

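ChIP-seq peaks were analysed as 10 lists, each from 1 library. The authors deposited positions only (chromosome, start, end), with no score, signal or count, so depth is unknown. In 9 lists peaks carried HPeak names and lay on a 25 bp grid, so positions were taken as 1-based with both ends included. In the DMSO MLL1 list both were missing, and the study names MACS for MLL1, so its starts were read as 0-based, with a possible error of 1 bp. The submitters' processing notes name Bowtie and mm9. The study states a significance cutoff for MLL1 peaks from MACS, and no threshold of the HPeak lists is given in the sources used here. No mm9 annotation or sequence was used, so positions carry no gene names.

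Overlaps were computed with Python 3.11.15 and numpy 2.4.6, tested on simulated data and checked with bedtools 2.31.1. Figures used matplotlib 3.10.9. Unweighted shares carry Wilson intervals and differences between them Newcombe intervals. Shares weighted for width carry normal-approximation intervals, and differences from them combine these with the Wilson limits of the lost peaks. Kept peaks were weighted to the widths of the lost peaks over 33 width classes. Named places are the 3 widest lost peaks, the 3 farthest from MM-401 H3K4me2, the 3 widest each with DMSO WDR5 or MLL1, and the 3 longest runs, outside chromosome 18. Runs were ranked by number of lost peaks and then by span. The alternatives changed the overlap, width limits, list length and starting list. The members and lists were chosen with earlier results of these data known.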

Additional observations from a re-analysis of the deposited data

How the results depend on the processing

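The choices of overlap, width, list length and starting list were varied in 7 ways for 6 results, and 17 of the 42 values stayed close to those reported. Counting peaks up to 2 kb apart as overlapping left 615 lost peaks, with a median distance of 4625 bp to MM-401 H3K4me2, a median width of 450 bp and 0% within 2 kb by construction. Requiring 50% coverage gave a DMSO WDR5 share of 1.97%, an MLL1 share of 1.40%, a median distance of 0 bp, 93.9% within 2 kb and a median width of 500 bp. In that setting a lost peak may share bases with an MM-401 peak, at a distance of 0 bp, so its distances follow in part from the definition. Without width limits there were 5571 lost peaks, with 0.521% WDR5, a median distance of 225 bp, 86.6% within 2 kb and a median width of 200 bp. With a lower limit of 500 bp there were 584, at a median distance of 675 bp, with 68.5% within 2 kb and a median width of 625 bp. The widest 50% of each list gave 3.73% WDR5, 1.16% MLL1, a median distance of 1925 bp, 51.0% within 2 kb and a median width of 650 bp, a setting that removes narrow lost peaks and narrow MM-401 peaks together. Starting from EtOH gave a median distance of 300 bp and 80.7% within 2 kb. Lists shortened to their 91305 widest peaks gave 1650 lost peaks and left all 6 results close to those reported. From the DMSO list this removes only peaks below the width limit of 300 bp, so it was a weak check. As a check added after the data were seen, the deficit of DMSO WDR5 against kept peaks of the same widths was computed in all 7 settings and kept its sign and an interval without 0, from -10.4 to -4.09 points. That of MLL1 did not, since the interval included 0 with peaks 2 kb apart counted (-0.361 points), with 50% coverage (-0.515) and from EtOH (-0.460). No paired analysis was possible because each condition had 1 library and no result came from a test, and for the same reason no library could be left out.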
